A study of Mus musculus with 12 samples.

Results

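Corticotrophs receive their main signals through the receptors for corticotrophin-releasing hormone (CRH), vasopressin and leukaemia inhibitory factor (LIF). The 7 genes described here were Crhr1, Crhbp, Avpr1b, Avpr1a, Lifr, Il6st and Il6ra, chosen by name out of 55304 genes in the deposited table. Crhr1 encodes the CRH receptor of the pituitary and Crhbp a secreted protein that binds CRH. Avpr1b encodes the vasopressin receptor of corticotrophs and Avpr1a the related receptor of vessels and liver. Lifr and Il6ra encode the ligand-binding chains for LIF and interleukin 6, and Il6st encodes gp130, the signalling chain that both share. All 7 had at least 1 read in some library.

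RNA was sequenced from eGFP-positive cells sorted from dissociated anterior pituitaries of male Pomc-eGFP transgenic mice on a C57Bl6/J background, aged 8 weeks when the study began. All groups carried the transgene, in which Pomc regulatory sequence drives the eGFP that the sort selected on. Control mice drank standard water throughout, and the other mice received dexamethasone (DEX), a synthetic glucocorticoid, at 2.5 µg/ml in the drinking water for 4 weeks. The DEX group was collected at the end of treatment, and the recovery groups 1 week (day 7) and 4 weeks (day 28) after the switch back to standard water. Each of the 4 groups held 3 libraries, and each library came from a separate pool of the labelled 3 pituitaries, described by the study as 2 to 3.

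CRH and vasopressin from the hypothalamus act on corticotrophs to raise Pomc transcription and ACTH release. The CRH receptor works mainly through Gs, cAMP and protein kinase A, and the V1b receptor through Gq, phospholipase C and calcium, so that each can enhance the action of the other. LIF and interleukin 6 act through gp130 and JAK-STAT signalling, which also drives Pomc, and glucocorticoids oppose these inputs at the hypothalamus and at the corticotroph itself.

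Levels are given as normalised counts, which are reads on a gene relative to the reads of the library (CPM) after the authors' scaling. One read was worth 0.0787 to 0.127 normalised counts, and the libraries held 7719894 to 12848078 reads on genes. Pomc, the ACTH precursor, lay between 34562 and 74260.1 normalised counts in the control pools and between 4241 and 8521 in the DEX pools, so every DEX pool was below every control pool. The corticotroph transcription factor Tbx19 was present in every library, at 39.5 to 1490.0 normalised counts. Gh and Prl, the hormones of somatotrophs and lactotrophs, were abundant in all 12 libraries, with Gh at 67563 to 265851 normalised counts. Pool 3 of the 1-week recovery group stood apart, with the lowest Tbx19 (39.5) and the lowest Gpc5 (2.67), a corticotroph marker. The endothelial gene Plvap was at 92.7 in that pool. The summed level of all 7 endothelial markers ran from 6.92 to 69.2 in control pools, 3.15 to 8.42 in DEX, 26.8 to 175 at 1 week and 77.7 to 149 at 4 weeks. The summed level of all 7 leukocyte markers ran from 58.8 to 135, 27.4 to 37.6, 105 to 168 and 113 to 224 in the same order. Melanotrophs also express Pomc. The sum of their 4 markers ran from 88.3 to 97.3, 43.5 to 61.7, 58.5 to 165 and 87.5 to 101 in that order. The part of these cell types in the receptor values was not tested. In sorted bulk RNA, fewer cells of a type and less RNA per cell cannot be told apart.

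Per kilobase of exon, Crhr1 had the highest level of the 7 genes in control pools. Its normalised count per kilobase was 50.0 ± 23.1 (SD, n = 3), with pools from 34.7 to 76.6. Il6st followed at 13.9 ± 8.33 per kilobase, and its pools (4.98 to 21.5) did not overlap those of Crhr1. Avpr1b at 8.09 ± 6.15 per kilobase overlapped Il6st on its upper side and Il6ra (4.34 ± 0.724 per kilobase) on its lower side. The Lifr level was 1.60 ± 0.248 per kilobase, below every Il6ra pool. Crhbp and Avpr1a were at or below 0.242 per kilobase in every control pool. In DEX the order of the upper genes narrowed, with Crhr1 at 33.9 ± 19.4 and Avpr1b at 25.0 ± 7.75 per kilobase and overlapping pools (21.4 to 56.2 and 16.9 to 32.3).

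**Figure D1:**
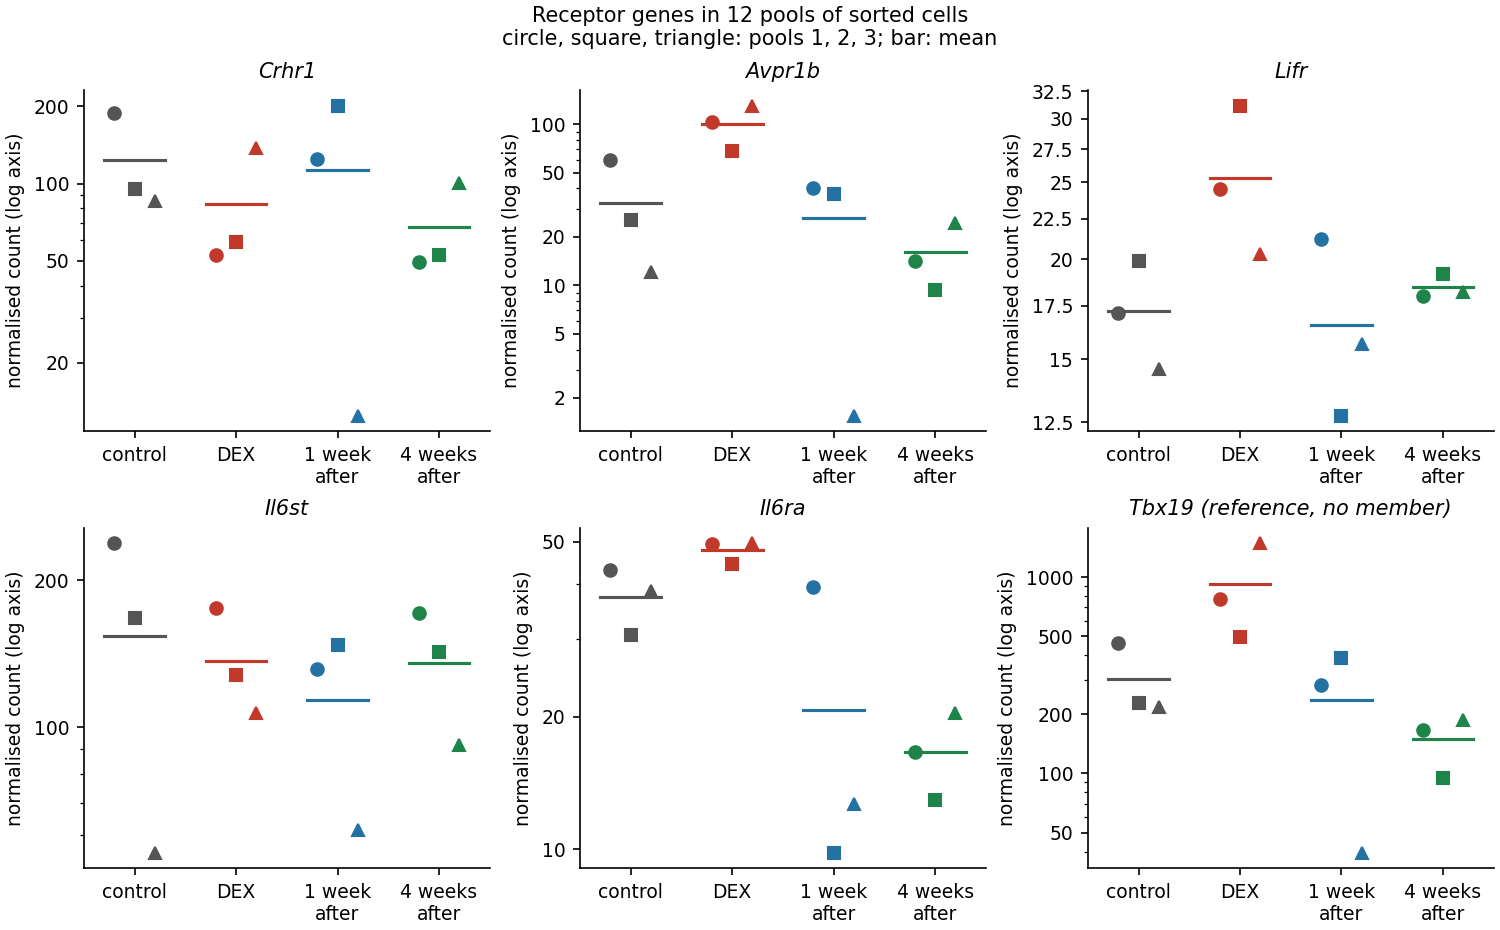
Normalised count (log axis) of the 5 members above a few reads, and of Tbx19 for reference, in the 12 libraries of control, DEX, 1 week after withdrawal and 4 weeks after withdrawal. Markers are pools and bars are means of 3. The 3 DEX pools of Avpr1b (67.9 to 130.1), Lifr and Il6ra lie above all control pools, while Crhr1 and Il6st overlap between all groups.

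None of the 7 genes passed the test across the 4 groups, in which 0.315% of the 24736 genes tested were called. The test was limma's moderated F on log2(normalised count + 0.1), with Benjamini-Hochberg adjustment over all genes tested and a threshold of 0.05. At an unadjusted limma p under 0.05 were 2277 of the 24736 genes. Among them were 2 members, Il6ra (adjusted p = 0.148) and Avpr1b (adjusted p = 0.413). The edgeR quasi-likelihood test on whole reads called 158 genes and 0 members. DESeq2 called 734 of 24723 genes with 1 member (Il6ra). The edgeR likelihood ratio test called 1033 of 24736 genes with 2 members (Avpr1b and Il6ra). That test takes the dispersion of a gene from a trend over all genes, not from the gene's own pools. In each of the 6 comparisons between pairs of groups limma also called 0 members. All fold changes below are differences of mean log2(normalised count + 0.1) with the standard error (SE) of that fit.

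The question of DEX against control is what 4 weeks of treatment does to these inputs. No member was called by limma, where 0.121% of all genes were. At an unadjusted p under 0.05 were 0 members and 1682 of all genes. The edgeR quasi-likelihood test (42 genes called) and DESeq2 (190 genes called) also called 0 members. The edgeR likelihood ratio test called 274 genes, Avpr1b among them. Set 3 against 3, the pools of Avpr1b, Lifr and Il6ra did not overlap and all 3 genes were higher in DEX. Of all genes tested, 12.8% did not overlap in this comparison in either direction. The members' median log2 difference was 0.36, and that of all genes −0.02.

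Crhr1 lies on the plus strand of chromosome 11 (GRCm38, chr11:104132855-104175523). Its normalised counts in control pools 1, 2 and 3 were 189, 95.2 and 85.5. In DEX they were 52.7, 59.2 and 138. At 1 week they were 125, 201 and 12.5, and at 4 weeks 49.2, 52.9 and 101. The groups overlapped throughout, and the highest and the lowest value of all 12 libraries were both in the 1-week group. The log2 difference from control was −0.61 in DEX, −0.76 at 1 week and −0.85 at 4 weeks (SE 0.736 each, adjusted p = 0.912, 1 and 0.903, limma). Without pool 3 the 1-week difference was 0.46, on the other side of 0. The exact permutation test over all 369600 divisions of the 12 libraries into 4 groups of 3 gave p = 0.861 for Crhr1.

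The 250 bases before the RefSeq start of Crhr1 are shown because the ratios of this gene to other genes of the same library are described below. They were taken from RefSeq (GRCm38.p6, chr11:104132531-104132780, plus strand) and are 74.8% G and C, against a median of 52.4% over 32851 promoters of the same length.
Crhr1: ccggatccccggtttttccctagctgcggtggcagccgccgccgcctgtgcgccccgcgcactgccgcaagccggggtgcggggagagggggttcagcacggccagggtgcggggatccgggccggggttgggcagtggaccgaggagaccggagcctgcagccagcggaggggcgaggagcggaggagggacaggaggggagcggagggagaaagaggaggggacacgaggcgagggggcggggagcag
The letters AGAACA (a single glucocorticoid receptor site), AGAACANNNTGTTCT (its palindrome), TGACG and TGACGTCA (the short and the full cAMP response element), AAAGGTCA (a Nur77 element) and TTCNNNGAA (a STAT element) were searched on both strands, and none is in this window. Of all promoters of this length, 16.1%, 0.00913%, 17.8%, 1.55%, 1.34% and 7.02% hold them in that order, and every TGACGTCA also holds TGACG. RefSeq promoters were matched for 6 of the 7 genes.

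Set against other genes of the same library, Crhr1 in DEX was lower, overlapping or higher according to the gene it was divided by. Its ratio to Tbx19, which does not depend on how libraries are scaled, was 0.411, 0.415 and 0.392 in the control pools. In the DEX pools it was 0.0685, 0.119 and 0.0928. It was 0.443, 0.522 and 0.315 at 1 week and 0.297, 0.560 and 0.537 at 4 weeks. All 3 DEX pools were below the other 9 libraries, and the recovery pools overlapped control. The mean ratio was 0.406 ± 0.0123 (SD, n = 3) in control and 0.0934 ± 0.0252 in DEX, and the difference of the mean log2 ratios was −2.16, which is 4.46-fold lower. The exact permutation test over the 4 groups gave an unadjusted p = 0.0163 for the log2 ratio, against p = 0.861 for Crhr1 itself. Tbx19 itself was 459, 229 and 218 in control and 769, 498 and 1490.0 in DEX, so the denominator was higher in every DEX pool.

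The following denominators were taken after the data had been seen, so their ratios are given without a test. Gpc5, a surface proteoglycan of corticotrophs, and Avpr1b had larger DEX than control means and were close to 1 profile over the 12 libraries (r = 0.987), so a low Crhr1 ratio in DEX followed from that choice and is not separate support for the Tbx19 ratio. Gpc5 itself overlapped between DEX and control (adjusted p = 0.777, limma). Against Gpc5 the Crhr1 ratio was 0.548, 0.915 and 1.15 in DEX and 2.59 to 6.39 in control, a log2 difference of −2.10. Against Avpr1b the ratio was 0.510, 0.871 and 1.06 in DEX and 3.14 to 7.08 in control, a log2 difference of −2.48. At 1 week the ratio of Crhr1 to Avpr1b was 3.12, 5.47 and 8.00, and at 4 weeks 3.46, 5.68 and 4.11. Against Neurod1, a transcription factor of corticotrophs, DEX and control overlapped, with a log2 difference of −0.62. Against Pcsk1, the convertase that cuts the Pomc product, they also overlapped, with a log2 difference of −0.18. Against Pomc the order was the opposite, with ratios of 0.0121, 0.00695 and 0.0326 in DEX and 0.00254, 0.00275 and 0.00115 in control, a log2 difference of 2.80. The recovery pools lay between 0.000286 and 0.00126 in that ratio, so every DEX pool was above the other 9 libraries, and Pomc was lower in every DEX pool than in every control pool.

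**Figure D2:**
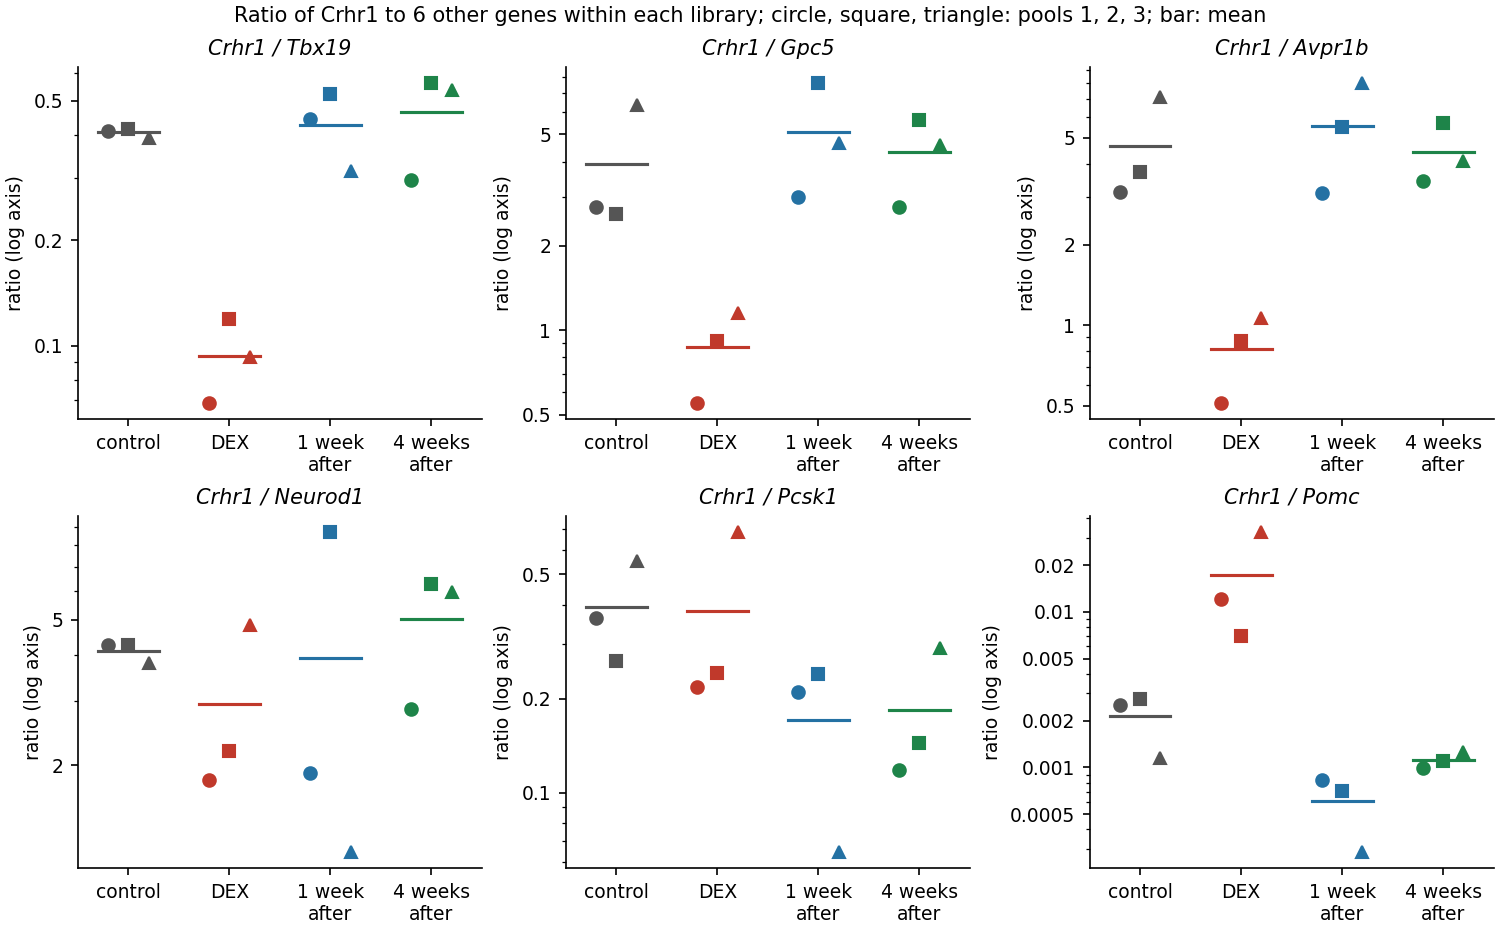
Ratio of Crhr1 to Tbx19, Gpc5, Avpr1b, Neurod1, Pcsk1 and Pomc within each of the 12 libraries (log axes). Markers are pools and bars are means of 3. The 3 DEX pools lie below all others against Tbx19, Gpc5 and Avpr1b, overlap control against Neurod1 and Pcsk1, and lie above all others against Pomc.

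Crhbp (chr13:95431371-95444924, minus strand) was near the detection limit. Its normalised counts were 0.393, 0 and 0.435 in control and 1.49, 0.654 and 0 in DEX. At 1 week they were 0, 0.255 and 1.11, and at 4 weeks 1.66, 1.09 and 0.722. The 3 pools at 4 weeks (8 to 18 reads) were above the 3 control pools (0 to 5 reads), and no other pair of groups was separated. The exact permutation p over the 4 groups was 0.442, and limma's adjusted p was 0.847.

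Avpr1b (chr1:131599239-131612000, plus strand) had the widest range of the 5 members above a few reads as a ratio of highest to lowest library. Its normalised counts were 60.0, 25.6 and 12.1 in control and 103, 67.9 and 130.1 in DEX. At 1 week they were 40.0, 36.7 and 1.56, and at 4 weeks 14.2, 9.30 and 24.5. Every DEX pool was above the other 9 libraries, and the other 3 groups overlapped. The group mean was 100.4 ± 31.2 (SD, n = 3) in DEX and 32.6 ± 24.7 in control, a 3.08-fold ratio of means. The log2 difference of DEX from control was 1.87 (SE 0.900, adjusted p = 0.741, limma). The difference from DEX was −2.85 at 1 week (adjusted p = 0.196) and −2.70 at 4 weeks (adjusted p = 0.23, limma). The difference from control was −0.98 at 1 week and −0.83 at 4 weeks. The exact permutation p over the 4 groups was 0.139.

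Pool 3 of the 1-week group, at 14 reads, set much of the spread of Avpr1b. Without it the 1-week difference from control was 0.53 in place of −0.98, the exact permutation p over the 4 groups was 0.0243, and limma's adjusted p was 0.0389 across the groups. Over all libraries left out in turn, that exact permutation p ran from 0.0243 to 0.331. The edgeR likelihood ratio test called Avpr1b in DEX against control (log2 1.63, adjusted p = 0.000958), 1 of 274 genes called there. The edgeR quasi-likelihood test and DESeq2 did not call it there.

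Avpr1b varied across libraries much as Tbx19 did. Its ratio to Tbx19 was 0.0993 ± 0.0392 (SD, n = 3) in control and 0.119 ± 0.0277 in DEX. After withdrawal it was 0.0922 ± 0.0513 at 1 week and 0.105 ± 0.0231 at 4 weeks. All groups overlapped in this ratio, and the exact permutation p was 0.814. Over the 12 libraries genes much like Avpr1b in log2 level included Gpc5 (Pearson r = 0.987) and Ano2, a chloride channel (r = 0.969), among 15756 genes compared. Avpr1b and Tbx19 had r = 0.964. These libraries share group and sort composition, so the coefficients describe the 12 points only.

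**Figure D3:**
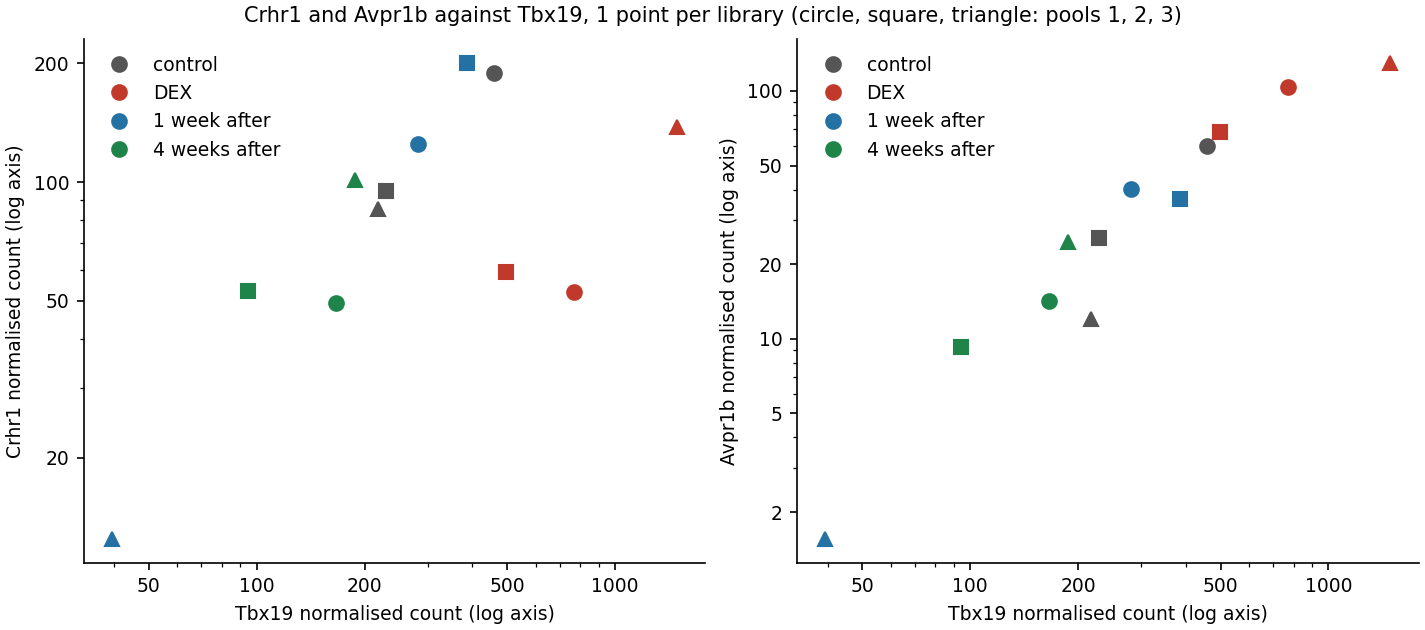
Crhr1 and Avpr1b against Tbx19 (normalised counts, log axes), with 1 point per library. Avpr1b follows Tbx19 through all 4 groups (r = 0.964), whereas the 3 DEX pools have Crhr1 of 52.7 to 138 at Tbx19 of 498 to 1490.0.

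Avpr1a (chr10:122448499-122453452, plus strand) had at most 4 reads in any library, or 0.327 normalised counts. Its highest group mean was 0.137 ± 0.170 (SD, n = 3), in DEX. Avpr1b, in contrast, had 14 reads or more in every library.

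Lifr (chr15:7090614-7197489, plus strand) had the narrowest range of the 5 members above a few reads. Its normalised counts were 17.2, 19.9 and 14.6 in control and 24.5, 31.1 and 20.3 in DEX. At 1 week they were 21.2, 12.7 and 15.7, and at 4 weeks 18.0, 19.2 and 18.2. The lowest DEX pool (20.3) was just above the highest control pool (19.9) and above all 4-week pools, and DEX overlapped the 1-week group. The ratio of means of DEX to control was 1.47, and the log2 difference was 0.54 (SE 0.272, adjusted p = 0.758, limma). From DEX the log2 difference was −0.62 at 1 week (adjusted p = 0.415) and −0.43 at 4 weeks (adjusted p = 0.688, limma). The exact permutation p over the 4 groups was 0.0731, and leaving out 1 library gave values from 0.0115 to 0.284. It was 0.0115 without 1-week pool 1 and 0.0397 without DEX pool 3. Relative to Tbx19, Lifr was 0.0637 ± 0.0249 (SD, n = 3) in control and lower in DEX, at 0.0360 ± 0.0247, with overlapping pools. That ratio was 0.168 ± 0.199 at 1 week and 0.136 ± 0.0582 at 4 weeks. All 4-week pools were above all control and DEX pools. Its exact permutation p over the 4 groups was 0.199.

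Il6st (chr13:112464070-112510086, plus strand) was abundant and did not separate. Its normalised counts were 239, 168 and 55.2 in control and 175, 128 and 107 in DEX. At 1 week they were 132, 148 and 61.4, and at 4 weeks 171, 143 and 91.8. All groups overlapped, with control pool 3 and 1-week pool 3 lowest. The group means were 154 ± 92.5 (SD, n = 3), 137 ± 35.0, 114 ± 45.9 and 135 ± 40.4, and the exact permutation p was 0.937. Relative to Tbx19 the ratio was 0.185 ± 0.0993 in DEX and 0.502 ± 0.240 in control, with overlapping pools. At 1 week it was 0.802 ± 0.654 and at 4 weeks 1.01 ± 0.512, and all recovery pools were above all DEX pools. The exact permutation p of that ratio over the 4 groups was 0.0476. Tbx19, the denominator, was itself higher in every DEX pool than in every control pool. The genes most like Il6st over the 12 libraries were Jak1, the kinase that gp130 uses (r = 0.961), Exoc6b and Exoc4 (both r = 0.955), subunits of the exocyst.

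The genes most like Crhr1 were Psmd3, a proteasome subunit (r = 0.948), the kinase gene Ptk2b (r = 0.945) and Pigs (r = 0.925). For Lifr they were D930048N14Rik (r = 0.891), Morc2a (r = 0.890) and Agtpbp1 (r = 0.878). For Crhbp, whose values rest on few reads, they were Htr7 (r = 0.831), Tgm4 (r = 0.828) and Clgn (r = 0.823).

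Il6ra (chr3:89864059-89913196, minus strand) had the smallest p of the 7 genes across the 4 groups, in limma and in the exact permutation test. Its normalised counts were 43.1, 30.7 and 38.6 in control and 49.4, 44.6 and 49.7 in DEX. At 1 week they were 39.5, 9.81 and 12.7, and at 4 weeks 16.6, 12.9 and 20.4. All DEX pools were above all control pools, and all 4-week pools were below them. The 1-week pools split, with pool 1 inside the control range and pools 2 and 3 below it. The group means were 37.5 ± 6.26 (SD, n = 3) in control and 47.9 ± 2.89 in DEX. After withdrawal they were 20.7 ± 16.4 at 1 week and 16.6 ± 3.74 at 4 weeks.

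From control, the log2 difference of Il6ra was 0.36 in DEX (SE 0.396, adjusted p = 0.906), −1.12 at 1 week (adjusted p = 1) and −1.18 at 4 weeks (adjusted p = 0.652, limma). From DEX, it was −1.49 at 1 week (adjusted p = 0.113) and −1.54 at 4 weeks (SE 0.396, adjusted p = 0.0882, limma). The 4-week mean was 2.88-fold below the DEX mean. The exact permutation p over the 4 groups was 0.0415, unadjusted. It was between 0.0540 and 0.0688 when any of 9 libraries was left out (control pools 1 and 3, 1-week pool 3 and all DEX and 4-week pools), and it was 0.00039 without 1-week pool 1. Between 2 groups of 3 the exact test cannot go below 0.1, which is the value it gave for DEX against control, 4 weeks against control and both recovery groups against DEX. DESeq2 called the 4-week difference from DEX (adjusted p = 0.0206), 1 of 655 genes called there. Leaving out 1-week pool 1 also brought it below the threshold (adjusted p = 0.0136, limma), as did leaving out 1-week pool 2 (adjusted p = 0.039, limma). The ratio of Il6ra to Tbx19 did not keep the pattern, with p = 0.545 in the exact permutation test over the 4 groups. In that ratio DEX and control changed order without overlap. The DEX pools (0.0333 to 0.0895) were below the control pools (0.0939 to 0.177), a log2 difference of −1.18.

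An antisense gene, Gm42809 (chr3:89912916-89914053, plus strand), shares 242 exon bases with Il6ra and spans its start. The library kit does not mark strand, so reads of the shared bases cannot be told apart. Gm42809 was at 34.9, 34.9 and 46.4 normalised counts in control and 29.7, 22.2 and 42.4 in DEX. After withdrawal it was at 24.8, 8.28 and 5.34 at 1 week and 23.0, 9.74 and 25.9 at 4 weeks. The sum of both genes, formed after the data had been seen, was 65.6 to 85.0 in control and 66.7 to 92.1 in DEX, which overlapped. It was 18.0 to 64.4 at 1 week and 22.7 to 46.3 at 4 weeks, so both recovery groups were below every control and DEX pool. The log2 difference of the sum from control was 0.05 in DEX, −1.45 at 1 week and −1.13 at 4 weeks, and the exact permutation p over the 4 groups was 0.0342. The separation of DEX above control was thus seen in Il6ra alone and not in the sum.

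The 250 bases before the start of Il6ra lie wholly within Gm42809 and are shown for that reason (RefSeq, GRCm38.p6, chr3:89913197-89913446, read on the minus strand). Capitals mark CGTCA, the reverse complement of the short element TGACG, at −236 to −232 from the start.
Il6ra: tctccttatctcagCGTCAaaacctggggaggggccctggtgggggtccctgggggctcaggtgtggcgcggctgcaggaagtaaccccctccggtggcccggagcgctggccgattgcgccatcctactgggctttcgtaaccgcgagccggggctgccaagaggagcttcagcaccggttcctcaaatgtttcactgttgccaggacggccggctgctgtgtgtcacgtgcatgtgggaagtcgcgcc
This window is 65.2% G and C and holds none of the other motifs named above. The same short element is in the windows of Avpr1a (−165 to −161) and Crhbp (−64 to −60), so it is in 3 of the 6 members with a promoter. Lifr has windows at separate starts, and none of them holds it. The share over all promoters, 17.8%, counts windows and not genes, so it is not a like measure.

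**Figure D4:**
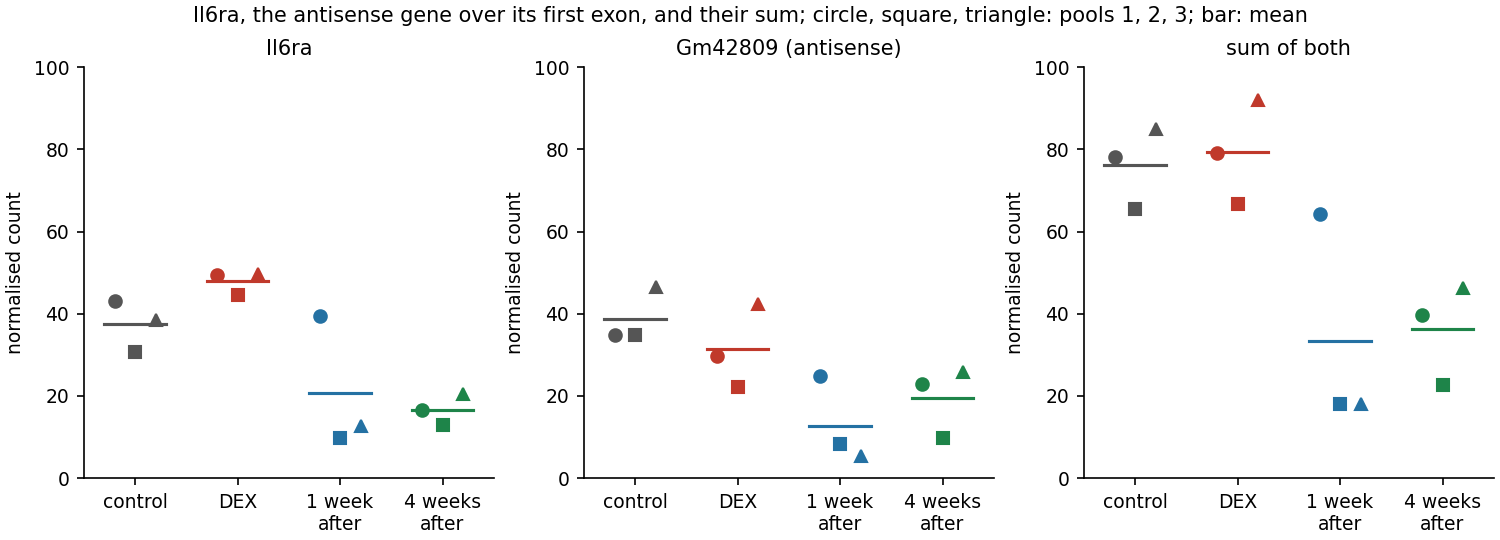
Normalised counts of Il6ra, of the antisense gene Gm42809 and of their sum in the 12 libraries (linear axes from 0). Markers are pools and bars are means of 3. All 4-week pools are below all control pools for Il6ra (12.9 to 20.4 against 30.7 to 43.1) and for the sum (22.7 to 46.3 against 65.6 to 85.0).

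Comparisons after withdrawal ask what persists or changes once DEX stops. At 1 week against control limma called 0.0% of all genes and 0 members. At an unadjusted p under 0.05 were 1 member (Il6ra) and 938 of the 24736 genes tested. The edgeR quasi-likelihood test called 1 gene and DESeq2 8 genes, none a member. No member separated without overlap, where 6.08% of all genes did. At 4 weeks against control limma called 0.0% of all genes and 0 members. Il6ra was again the only member under an unadjusted p of 0.05, against 1570 of all genes. The edgeR quasi-likelihood test called 0 genes and DESeq2 60, none a member. Crhbp was higher and Il6ra lower without overlap, against 13.2% of all genes in either direction.

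Against DEX, the recovery groups differed more. At 1 week limma called 0.433% of all genes and 0 members. At an unadjusted p under 0.05 were 3 members (Avpr1b, Lifr and Il6ra) and 2665 of the 24736 genes tested. Avpr1b and Il6ra were lower without overlap, against 13.8% of all genes in either direction. At 4 weeks limma called 0.873% of all genes and 0 members. At an unadjusted p under 0.05 were 2 members (Avpr1b and Il6ra) and 2459 of all genes. Avpr1b, Lifr and Il6ra were lower without overlap, against 19.5% of all genes. Since both comparisons share the DEX pools with that of DEX against control, they are not independent of it. Between the recovery groups limma called 0.0% of all genes and 0 members. At an unadjusted p under 0.05 were 0 members and 1352 of all genes. DESeq2 called 15 genes with no member, and no member separated, against 8.92% of all genes.

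The ligands of these receptors were scarce in the sorted cells. Crh, the main ligand of Crhr1, was at most 2.96 normalised counts (32 reads). Of the urocortins, Ucn had 1 read in a single library, Ucn2 reached 0.544 and Ucn3 1.02 normalised counts, and the second CRH receptor Crhr2 reached 0.652. Avp had 0 reads in all 12 libraries and Oxt at most 5 reads. Of the 5 genes of the CRH family list 3 were tested, of the 4 of the vasopressin and oxytocin list 2, and limma called none in any comparison.

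Among the interleukin 6 family cytokines, Il6 ranged from 0.0902 to 7.08 normalised counts and Lif from 0 to 1.05. Il11, Osm and Clcf1 were at or below 1.45 and Cntf had 1 read. Ctf1 was higher (1.27 to 19.1). Of the 8 genes in the list 7 were tested and limma called 0. Oxtr, the oxytocin receptor, had the smallest p of the vasopressin and oxytocin list. It was at 3.86, 1.88 and 0.761 in control and 0, 0.409 and 0 in DEX. After withdrawal it was at 1.62, 0.765 and 0.445 at 1 week and 3.51, 0.657 and 1.99 at 4 weeks. Its DEX pools were below the other 9 libraries, with an adjusted p = 0.171 across the groups (limma). The highest DEX pool (0.409) was below 1-week pool 3 (0.445) by less than 1 read is worth (0.0787 to 0.127). DESeq2 and the edgeR likelihood ratio test called Oxtr in DEX against control (adjusted p = 0.0377 and 0.00372), and limma called it at 4 weeks against DEX without DEX pool 2 (adjusted p = 0.0456). Avpr2 in the same list stayed at or below 0.491. Clcf1, a ligand of the ciliary neurotrophic factor receptor, had no read in any DEX pool and an adjusted p = 0.321 across the groups, the smallest of its list (limma). DESeq2 and the edgeR likelihood ratio test called Clcf1 at 4 weeks against DEX (adjusted p = 0.0336 and 0.0141).

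One receptor gene of the wider family passed the test. Cntfr encodes the ligand-binding chain for ciliary neurotrophic factor, which signals through Lifr and gp130. Its normalised counts were 5.98, 11.1 and 16.2 in control and 26.7, 14.5 and 48.1 in DEX. They were 5.51, 1.78 and 2.89 at 1 week and 6.10, 6.35 and 7.31 at 4 weeks. DEX overlapped control at 1 pool, and all recovery pools were below all DEX pools. Cntfr was called across the 4 groups (adjusted p = 0.0424) and fell from DEX to 1 week by 3.07 on the log2 scale (SE 0.488, adjusted p = 0.0105, limma). Its difference of DEX from control was 1.36 (adjusted p = 0.526, limma). The call across the groups was lost when 1 of 7 libraries was left out, with adjusted p = 0.0830 without control pool 2, 0.248 and 0.234 without DEX pools 1 and 3, 0.0613 without 1-week pool 2 and 0.0794, 0.1002 and 0.0878 without 4-week pools 1, 2 and 3 (limma). The fall to 1 week was lost without DEX pool 1 (adjusted p = 0.0654) or DEX pool 3 (adjusted p = 0.0813, limma). Of the 4 genes in the list it was the single one called. Il11ra1 (40.7 to 62.4) and Osmr (1.35 to 9.76) were not, and Il27ra stayed at or below 0.472.

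Genes downstream of these receptors did not pass the limma test in any of the 5 lists examined, while other tests or settings called 1 or 2 genes in 4 of the lists. None of 8 JAK-STAT transducers was called by limma, and their median log2 difference of DEX from control was 0.13 (all genes −0.02). Stat5a had the smallest p of them and was at 35.4, 27.8 and 45.5 in DEX against 18.8, 21.7 and 14.5 in control, with every DEX pool above the other 9 libraries (adjusted p = 0.296 across the groups, limma). DESeq2 called Stat5a across the groups (adjusted p = 0.0204) and in DEX against control (adjusted p = 0.03). Stat5b had the next smallest, at 117, 97.2 and 157 in DEX and 84.4, 83.4 and 38.8 in control (adjusted p = 0.713). Of the 6 JAK-STAT feedback genes none was called by limma or by any alternative, the nearest being Socs1 (adjusted p = 0.341), lowest at 1 week (8.17, 2.93 and 4.67), and Cish (adjusted p = 0.519).

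None of 14 Gs and cAMP genes was called by limma, with a median log2 difference of DEX from control of 0.08. The smallest p-values were those of Prkaca, the catalytic subunit of protein kinase A (adjusted p = 0.489), and Adcy3, an adenylate cyclase (adjusted p = 0.494, limma). The edgeR likelihood ratio test called Prkaca across the groups (adjusted p = 0.000554). None of 12 Gq and phospholipase C genes was called by limma, with a median of 0.05. Itpr1, the inositol trisphosphate receptor that releases calcium, was at 92.1, 94.3 and 94.4 in DEX and 66.2, 62.2 and 65.8 in control. It was at 55.9, 62.3 and 84.6 at 1 week and 64.0, 37.8 and 33.7 at 4 weeks. Its DEX pools were the highest of the 12 libraries (adjusted p = 0.233 across the groups, and 0.0602 for 4 weeks against DEX, limma). Without 1-week pool 2, 1-week pool 3 or 4-week pool 1 that last value was 0.0439, 0.0299 or 0.0426 (limma). It was 0.0477 on plain CPM and 0.00146 with array weights (limma), and 0.0127 in DESeq2. Itpr2 was next in that list (adjusted p = 0.371).

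None of 8 genes of receptor desensitisation was called by limma, with a median of −0.14. Rgs4, a regulator that shortens G protein signals, was at 1057, 295 and 152 in control and 74.4, 81.3 and 50.5 in DEX. At 1 week it was 691, 399 and 57.5, and at 4 weeks 367, 132 and 153. The DEX pools were below every control pool, and 1-week pool 3 lay among them (adjusted p = 0.48 across the groups, limma). The edgeR likelihood ratio test called Rgs4 across the groups and in DEX against control (adjusted p = 2.92e-10 and 4.2e-10), and limma called it at 1 week against DEX without 1-week pool 3 (adjusted p = 0.0345). Arrb1, an arrestin, was next (adjusted p = 0.592).

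**Figure D5:**
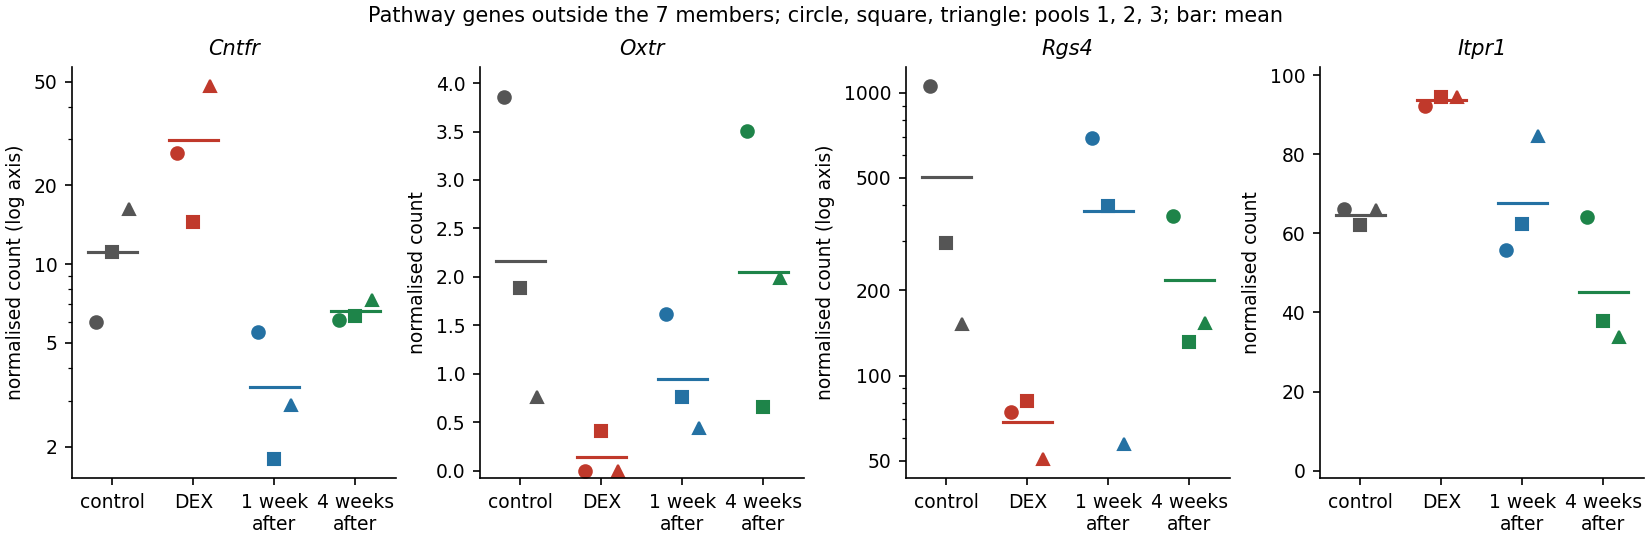
Normalised counts of Cntfr, Oxtr, Rgs4 and Itpr1 in the 12 libraries (log axes for Cntfr and Rgs4, linear axes for Oxtr and Itpr1). Markers are pools and bars are means of 3. Cntfr is the gene that passed the test (adjusted p = 0.0424, limma), and its recovery pools (1.78 to 7.31) lie below all DEX pools (14.5 to 48.1).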

How the data were processed

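RNA-seq of 12 libraries of sorted cells was analysed in 4 groups of 3. Libraries were made with SMART-V4 and Nextera XT kits from RNA below the limit of detection of the fluorometer. Per the labels and methods, the authors trimmed reads with Trim Galore 0.6.5, aligned them to GRCm38 with STAR 2.7.1a and counted them per gene with featureCounts 2.0.0, with a strand setting. The kits do not mark strand, so a strand setting may have left out read pairs of the other orientation and split reads between genes that overlap on opposite strands, such as Il6ra and Gm42809. How many was not tested. The deposited values are a normalised signal: CPM on a library size of reads times an edgeR scaling factor (0.702 to 1.21), and the factors equalled TMM factors recomputed from the reads. Reads were recovered from the steps in the values, and 100% of 271881 values above 0 were whole within 1e-06. The analysis had been planned for plain CPM, and the same test was kept.

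Genes above 0.1 in at least 3 libraries (24736) were fitted as log2(value + 0.1) with limma 3.58.1 in R 4.3.3, eBayes with trend, all 12 libraries in 1 model, with Benjamini-Hochberg adjustment. The edgeR 4.0.16 quasi-likelihood test on the recovered reads called 158 genes across the groups, and DESeq2 1.42.0 and an edgeR likelihood ratio test were further alternatives. Exact permutation tests used all divisions of the libraries and are two-sided and unadjusted. The limma and edgeR quasi-likelihood fits were tried on simulated counts with known changes in DEX and a constant dispersion. The other tests were not tried that way. The 7 members, the gene lists and the tests were chosen with earlier results of these data known. Named genes were the members, the ligands, and of each list the genes called or else those with the smallest p (2 per list), with the 3 most similar genes of members. Some genes these rules select are not reported here. Coordinates and exon lengths are those of GENCODE M21 (GRCm38). Each library is a separate pool of mice, so p-values measure the spread between pools. The edgeR likelihood ratio test is an exception, since it used a dispersion trend over all genes. Its p-values do not measure the gene's own spread between pools.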

Additional observations from a re-analysis of the deposited data

Results flagged for a closer look

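Il6ra lay on opposite sides of control in 2 of the groups, although neither difference from control passed the test (adjusted p = 0.906 in DEX and 0.652 at 4 weeks, limma). All 3 DEX pools (44.6 to 49.7 normalised counts) were above all 3 control pools (30.7 to 43.1), and all 3 pools at 4 weeks after withdrawal (12.9 to 20.4) were below them. Of all genes tested, 12.8% and 13.2% did not overlap in these comparisons in either direction. The difference of 4 weeks from DEX was −1.54 on the log2(value + 0.1) scale, with an adjusted p = 0.0882 in limma. The exact permutation test gave p = 0.1, the smallest that 3 pools against 3 allow. Genes were flagged for having 2 groups on opposite sides of all control pools, so that p was fixed by the choice. In the sum of Il6ra and its antisense gene the DEX pools overlapped control. In the ratio of Il6ra to Tbx19, which was itself higher in every DEX pool, the DEX pools were below all control pools.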

How the results depend on the processing

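The 7 genes were refitted under 26 alternatives to limma's settings. The counts of members called, 0 throughout in the main fit, stayed at 0 with another pseudocount, filter or scaling, robust moderation, 2-group fits and the edgeR quasi-likelihood test. Array weights called 2 members across the 4 groups and 2 at 4 weeks against DEX, the edgeR likelihood ratio test 2 across the groups, 1 in DEX against control, 2 at 1 week and 2 at 4 weeks against DEX, and DESeq2 1 across the groups and 1 at 4 weeks against DEX. All of these were Avpr1b or Il6ra. In the same order, array weights called 1069 and 1300 of all genes. The edgeR likelihood ratio test called 1033, 274, 705 and 654 of all genes, and DESeq2 734 and 655. Leaving out 1 library gave 0 to 1 members across the groups, at 1 week against DEX and at 4 weeks against DEX, and 0 in every other comparison. Those calls came from leaving out 1-week pool 1 (Il6ra in all 3), pool 2 (Il6ra at 4 weeks against DEX) or pool 3 (Avpr1b across the groups and at 4 weeks against DEX).

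Without 1-week pool 3, the 1-week difference from control changed sign for Crhr1 (0.46) and Avpr1b (0.53), and over all libraries left out it ran from −1.54 to 0.46 and from −1.77 to 0.53. Cntfr was called across the groups in 16 of 25 alternatives (adjusted p = 0.0567 with a pseudocount of 1 and 0.0503 with a filter above 1), and at 1 week against DEX in 23 of 26 (adjusted p = 0.276 with only the 2 groups compared). Over all 7 genes and 6 comparisons, 69 of 1086 refitted differences changed sign, 24 of them for Il6st, whose differences were close to 0. The cause was not tested. Plain CPM without scaling factors shifted the median of all genes by 0.10 in DEX, −0.19 at 1 week and −0.13 at 4 weeks against control, and by −0.29 and −0.24 at 1 and 4 weeks against DEX.

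As a ratio to Tbx19, the exact permutation p over the 4 groups was 0.0163 for Crhr1, 0.0476 for Il6st and 0.545 for Il6ra. Such a ratio also carries the change of Tbx19, whose own exact permutation p over the 4 groups was 0.0577. Leaving out 1 library gave exact permutation p-values of 0.00039 to 0.0688 for Il6ra, over 0.05 in 9 of 12 cases, 0.0243 to 0.331 for Avpr1b and 0.0115 to 0.284 for Lifr. The log2 difference of the Crhr1 ratio, DEX minus control, was −2.48 against Avpr1b, −0.62 against Neurod1 and −0.18 against Pcsk1, and it reversed to 2.80 against Pomc, denominators chosen after seeing the data, and ran from −2.35 to −1.95 with 1 library left out against Tbx19. Of the pathway genes that limma did not call, other settings called Oxtr, Clcf1, Stat5a, Prkaca, Itpr1, Prkcb, Rgs4 and Arrb1 in at least 1 comparison, Prkcb and Arrb1 with array weights alone.

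With replicate number as a block, 0 members were called in every test, as without it, and 85 of all genes across the groups against 78. Deviations of same-numbered libraries correlated at −0.294 to 0.397, over 0.1 in 7 of 18 pairs, and 8 of 12 libraries matched a same-numbered one best. All 3 pairs of control and 1-week pools were over 0.1, and in that comparison the block called 0 genes, as did the fit without it. Over all groups the pairing is thus a hint from the data, and the labels give no shared litter or day. Between 3 pools and 3 the exact test cannot go below 0.1, and Crhbp and Avpr1a rest on too few reads for a fold.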
